A study of Homo sapiens with 6 samples.

Results

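Enzalutamide-resistant C4-2B MDVR prostate cancer cells treated with PTUPB 10 uM plus enzalutamide were compared with cells given DMSO. The comparison rests on 2 of the 6 RNA-seq libraries in the series, with 1 library per group. It covers the 12960 of 58735 genes whose mean over the 6 libraries was 1 FPKM or more, a unit of fragments scaled to exon length and library depth. C3orf67, at a mean of 1.00036 FPKM, was the lowest gene inside this limit, and ZNF790, at 0.999964, the highest outside it. The parental C4-2B is a human prostate cancer line from which the resistant MDVR cells derive, and all groups are MDVR cells after 2 days of treatment. Enzalutamide is an antiandrogen, and PTUPB inhibits both cyclooxygenase-2 and soluble epoxide hydrolase. The libraries used besides the combination and DMSO are enzalutamide alone at 20 uM and PTUPB alone at 10 uM, and both 20 uM PTUPB libraries, with and without enzalutamide, are quoted where they bear on a gene. The combination label carries no enzalutamide dose, and 20 uM was assumed there. Every sum of single-agent differences depends on that assumption.

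Androgens sustain luminal prostate cells and drive secretory genes such as the kallikreins. Cells that divide pass from a replication program, which E2F factors switch on, to a mitotic program, in which the DREAM and MuvB complexes read a short promoter element called the CHR. When amino acids run short or proteins misfold, translation slows and the factor ATF4 is made, which raises genes for amino acid uptake and synthesis.

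Genes here received 25627945 fragments in the combination library, 29450436 with enzalutamide, 28848961 with PTUPB 10 uM and 27337933 in DMSO. Nothing in the labels says that libraries came from separate cultures, and with 1 library per group no difference below has a replicate check or a test. Folds carry an exact 95% counting interval from recovered fragments, which covers counting error only. A difference is on the log2(FPKM + 1) scale, which understates the change of low genes, and a gene is called higher or lower at log2 1 or more. Of 7 luminal markers none was under 1 FPKM in all libraries, and their summed level was 737 FPKM in the combination library, 859 with enzalutamide, 812 with PTUPB 10 uM and 851 in DMSO. All 4 basal, 4 neuroendocrine, 4 blood and 3 endothelial markers stayed under 1 FPKM in every library, as did 4 of 5 stromal ones. The DMSO library lay at log2 1 or more above all other 5 libraries for 9 genes and below them for 17, and the combination library for 10 and 2. In a bulk library, fewer cells of a kind and less RNA per cell cannot be told apart.

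Mitosis genes were lower in the combination library than in each of the other 3. The promoters of 5 of them with low combination values relative to the sum of the single agents are printed, and 4 of these 5 hold the CHR letters. The 5 were drawn only from genes with a promoter window, and not every such gene was eligible, so they are not a strict ranking. For a gene with several windows, a window holding the letters was preferred. The 4 of 5 is therefore no estimate of how often mitosis genes hold them. Each printed promoter is 150 bases from the RefSeq start-site table (GRCh38.p14), 5′ to 3′ on the strand of the gene. Every match to TTTGAA inside the 150 bases, on either strand, is in capitals.
CKS2 (chr9:89311095-89311244, plus strand): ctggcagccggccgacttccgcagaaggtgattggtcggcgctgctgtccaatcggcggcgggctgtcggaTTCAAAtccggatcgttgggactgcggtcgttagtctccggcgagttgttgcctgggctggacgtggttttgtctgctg
ANLN (chr7:36389762-36389911, plus strand): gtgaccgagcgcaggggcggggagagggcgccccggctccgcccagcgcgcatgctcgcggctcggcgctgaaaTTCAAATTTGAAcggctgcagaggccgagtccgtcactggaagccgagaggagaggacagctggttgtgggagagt
MYBL2 (chr20:43667014-43667163, plus strand): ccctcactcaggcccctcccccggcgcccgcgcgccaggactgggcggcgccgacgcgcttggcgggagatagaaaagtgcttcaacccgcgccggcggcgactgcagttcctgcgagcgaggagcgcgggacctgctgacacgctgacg
DLGAP5 (chr14:55191536-55191685, minus strand): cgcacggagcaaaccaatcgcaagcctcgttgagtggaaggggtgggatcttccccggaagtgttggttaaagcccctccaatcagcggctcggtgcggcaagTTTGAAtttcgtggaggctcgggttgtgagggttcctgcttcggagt
KIF4A (chrX:70290004-70290153, plus strand): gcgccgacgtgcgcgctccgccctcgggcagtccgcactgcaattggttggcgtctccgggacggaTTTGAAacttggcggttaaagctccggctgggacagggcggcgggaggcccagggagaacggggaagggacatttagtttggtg
Counted from the start as base 1, with -1 just before it, the match begins at -29 in CKS2 and -34 in KIF4A, and in ANLN 2 abutting matches on opposite strands begin at -26 and -20. DLGAP5 holds 3 matches in its 300-base window, at -138, -109 and 4, and the MYBL2 window holds none. Of the 57 mitosis genes with a window of 250 bases before to 50 after the start, 42 (73.7%) held TTTGAA, against 1164 of 9257 tested genes with a window (12.6%). DNA replication genes, which were also lower in the combination library, held it in 1 of 31 windows (3.23%). CCAAT, the letters bound by the factor NF-Y, was in 45 of the 57 mitosis windows (78.9%), in 20 of 31 replication windows (64.5%) and in 4037 of all 9257 (43.6%).

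For the androgen-induced genes the letters searched, on both strands, were a 15-base form of the androgen response element: any base, GAACA, any 4 bases, GT, any base and CT. Of 18 such genes with a window, 2 held a match, namely the kallikreins KLK3 and KLK2, which are also among the 10 lowest genes of the comparison, against 18 of 9257 tested genes (0.194%). KLK3 and KLK2 are neighbouring close paralogs whose matches differ in the first base only, so the 2 matches are not independent. How this form was chosen is not recorded, and it leaves free the base at which the 2 matches differ. A form that may have been fitted to these promoters cannot test the element, so no conclusion is drawn from the 2 of 18. In the 50 bases printed for each, the match is in capitals, and it begins at -170 in KLK3 and -176 in KLK2.
KLK3 (chr19:50854725-50854774, plus strand): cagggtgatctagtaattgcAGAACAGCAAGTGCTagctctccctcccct
KLK2 (chr19:50873249-50873298, plus strand): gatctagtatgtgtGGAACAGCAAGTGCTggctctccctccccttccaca
A match describes these letters in this window, and an absent match says no more than that they are not there.

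Across all 12960 genes, 351 (2.71%) were higher and 335 (2.58%) lower in the combination library than in DMSO, with a median difference of -0.02. The lower genes were mostly protein-coding (251 of 335), whereas 145 of the 351 higher genes were, and another count of 145 higher genes had under 50 fragments in each of the 4 libraries. Of the 335 lower genes, 58 sat in the mitosis lists, 24 in the replication and repair lists and 19 in the androgen-induced list. Enzalutamide alone gave 170 higher (1.31%) and 178 lower (1.37%) and PTUPB 10 uM alone 210 (1.62%) and 100 (0.772%). In TPM the all-gene median stood at -0.36 and the split at 334 higher and 990 lower, so 25.2% of called genes were higher in place of 51.2%. Values in TPM below are read against that median. Counts of list members as deposited are read against the shares of all genes, 2.71% higher and 2.58% lower. Those under another setting are read against its own all-gene counts. These were 334 higher and 990 lower of 12960 in TPM, and 83 and 106 with a pseudocount of 5.

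The combination was next set against the sum of the enzalutamide and PTUPB 10 uM differences. All 3 differences share the DMSO library, which therefore enters every such value. The combination lay above the sum by log2 1 or more for 280 genes (2.16%) and below it for 278 (2.15%), with a median of -0.02. Of those above, 31 were protein-coding and 192 had under 50 fragments in each of the 4 libraries. Of those below, 96 were protein-coding and 20 were mitosis genes. A stricter reading asks that the combination library lie log2 1 or more outside each of the other 3 libraries. That held for 55 genes on the high side (0.424%), 8 of them protein-coding, and for 97 on the low side (0.748%), 82 of them protein-coding and 38 of them mitosis genes.

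**Figure D1:**
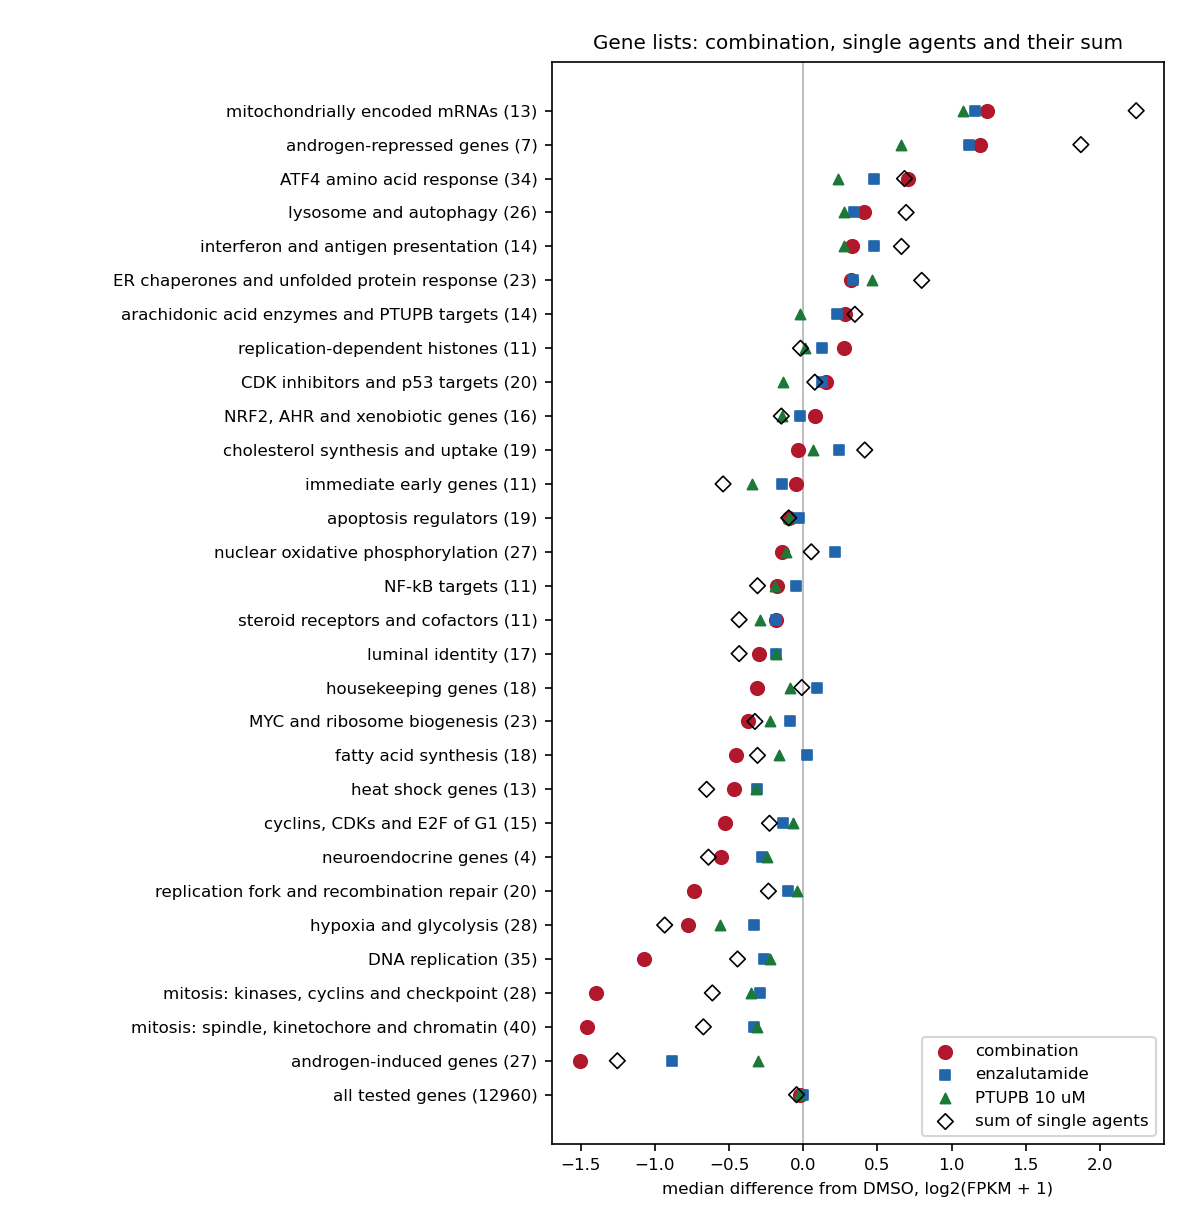
Median difference from DMSO on the log2(FPKM + 1) scale, 1 line per gene list with the number of tested genes in brackets. Circles are the combination, squares enzalutamide, triangles PTUPB 10 uM and open diamonds the sum of the single agents. For the mitosis and DNA replication lists the circle lies to the left of the diamond, and for the mitochondrially encoded mRNAs it lies beside both single agents, at -0.99 relative to the sum.

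Mitosis genes were lower together in the combination library, while none of them passed the limit with either single agent. Of 69 genes in the lists of mitotic kinases, cyclins, checkpoint, spindle, kinetochore and chromatin genes, 68 were tested. Relative to DMSO, 58 of these were lower and 0 higher, and 10 lay within the limit, against 2.58% lower among all tested genes. Their median difference was -1.43 for the combination, -0.32 for enzalutamide and -0.33 for PTUPB 10 uM, and 0 and 0 of the 68 were lower with those single agents, where 1.37% and 0.772% of all genes were. The combination library was the lowest of the 4 for all 68, against 32.5% of all tested genes. In TPM the median was -1.97.

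CCNB1 and CCNB2 encode the B-type cyclins that start mitosis with the kinase CDK1. CCNB1 had 11.1 FPKM with the combination, 34.4 with enzalutamide, 31.1 with PTUPB 10 uM and 43.1 in DMSO. The combination library was the lowest and the other 3 lay between 31.1 and 43.1 FPKM, and CCNB1 was 3.88-fold lower than in DMSO (95% counting interval 3.58 to 4.20). CCNB2 (chr15:59105078-59125045, plus strand in GENCODE 29 on GRCh38) had 4.39 FPKM in the combination library, against 16.1 for enzalutamide, 15.6 for PTUPB 10 uM and 21.98 for DMSO, a level 5.005-fold lower than in DMSO. CDK1 itself differed less, with 25.4 FPKM with the combination, 53.5 with enzalutamide, 49.4 with PTUPB 10 uM and 57.9 in DMSO.

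The anaphase genes showed the same order of libraries. CDC20, the activator of the anaphase-promoting complex, had 9.25 FPKM in the combination library, against 30.3 for enzalutamide, 30.2 for PTUPB 10 uM and 41.4 for DMSO, and it was 4.48-fold lower than in DMSO (95% counting interval 4.07 to 4.94). UBE2C, the ubiquitin-conjugating enzyme of that complex, had 5.68 FPKM with the combination, 19.6 with enzalutamide, 18.5 with PTUPB 10 uM and 24.8 in DMSO. PTTG1, the separase inhibitor securin, had 5.94 FPKM with the combination, 18.0 with enzalutamide, 16.1 with PTUPB 10 uM and 25.3 in DMSO. In each of the 3 the combination library was the lowest and DMSO the highest.

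Kinases of the mitotic entry and checkpoint steps were lower as well. PLK1, polo-like kinase, had 3.57 FPKM in the combination library, against 11.1 for enzalutamide, 11.8 for PTUPB 10 uM and 18.3 for DMSO, and AURKA, the centrosomal aurora kinase, had 4.30 FPKM with the combination, 11.6 with enzalutamide, 11.3 with PTUPB 10 uM and 15.3 in DMSO. The transcription factors that act on mitosis genes were part of the group. FOXM1 had 4.80 FPKM with the combination, 11.4 with enzalutamide, 10.5 with PTUPB 10 uM and 13.8 in DMSO and MYBL2, a MuvB partner, had 13.03 FPKM in the combination library, against 41.5 for enzalutamide, 41.9 for PTUPB 10 uM and 46.8 for DMSO. The members with the smallest difference from DMSO in the kinase and checkpoint list were BUB3 at -0.66 and PLK4 at -0.59.

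Among motor, spindle and chromosome genes, KIF20A, a kinesin of the central spindle, had the lowest difference at -2.32. It stood at 2.09 FPKM with the combination, 8.49 with enzalutamide, 9.34 with PTUPB 10 uM and 14.4 in DMSO and was 6.90-fold lower than in DMSO (95% counting interval 5.99 to 7.98). HMMR, a spindle-associated hyaluronan receptor, had 3.99 FPKM in the combination library, against 15.8 for enzalutamide, 15.6 for PTUPB 10 uM and 23.3 for DMSO, 5.83-fold lower than in DMSO. CENPA, the centromeric histone, had 1.11 FPKM with the combination, 4.75 with enzalutamide, 4.98 with PTUPB 10 uM and 7.36 in DMSO. MKI67, the proliferation antigen, had 3.30 FPKM in the combination library, against 8.27 for enzalutamide, 11.3 for PTUPB 10 uM and 12.3 for DMSO, and TOP2A, the topoisomerase that untangles chromosomes before division, had 5.40 FPKM with the combination, 15.5 with enzalutamide, 13.4 with PTUPB 10 uM and 16.8 in DMSO. For all 5 genes the combination library held the lowest level of the 4, with the single agents between it and DMSO.

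Set against the sum of the single agents, the mitosis genes had a median of -0.82, and 20 of 68 lay log2 1 or more below the sum and 0 above it, against 2.15% below among all genes. The combination library lay log2 1 or more below each of the other 3 for 38 of the 68, against 0.748% of all genes. That count depends on the setting: 15 of 28 kinase, cyclin and checkpoint genes and 23 of 40 spindle and chromatin genes as deposited, 6 and 5 with a pseudocount of 5, and 17 and 29 in TPM. The count over all 12960 genes varied too, with 97 as deposited, 21 with a pseudocount of 5 and 157 in TPM. CKS2, a small CDK-binding subunit, had the lowest value against the sum at -1.73. It had 20.9 FPKM with the combination, 84.3 with enzalutamide, 61.4 with PTUPB 10 uM and 72.5 in DMSO, so the enzalutamide library was above DMSO and the combination library well below both. Reads of CKS2 may be shared with close copies. ANLN, the contractile-ring protein anillin, was level in the other 3 libraries, with 7.18 FPKM in the combination library, against 21.3 for enzalutamide, 22.1 for PTUPB 10 uM and 21.2 for DMSO. Its combination level was 2.95-fold lower than in DMSO (95% counting interval 2.76 to 3.16), and lower than with enzalutamide by 2.96-fold (2.77 to 3.17) and than with PTUPB 10 uM by 3.08-fold (2.89 to 3.30). DLGAP5, a kinetochore-fibre protein, had 3.70 FPKM with the combination, 16.0 with enzalutamide, 14.7 with PTUPB 10 uM and 19.9 in DMSO and a value against the sum of -1.44. In TPM the median of the group against the sum was -0.56, where the median of all genes was 0.34. The count below the sum depends on the scaling: 9 of 28 kinase, cyclin and checkpoint genes and 11 of 40 spindle and chromatin genes as deposited, 3 and 4 in TPM, 6 and 5 scaled by total fragments, and 3 and 1 with a pseudocount of 5. Over all 12960 genes it was 278 as deposited, 220 in TPM, 196 by total fragments and 64 with a pseudocount of 5.

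**Figure D2:**
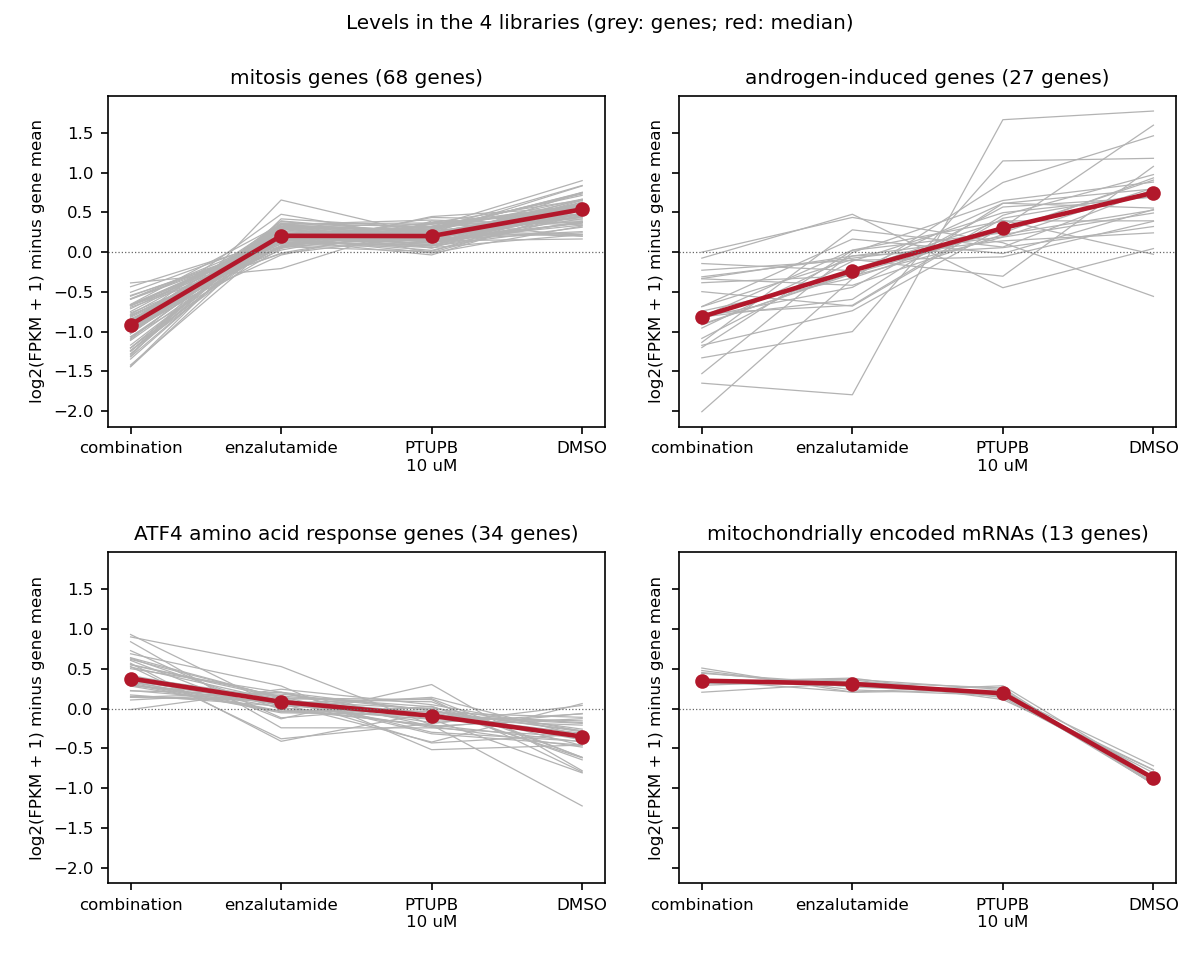
Level of each gene in the combination, enzalutamide, PTUPB 10 uM and DMSO libraries as log2(FPKM + 1) minus the mean of the gene over these 4. Grey lines are single genes and the red line is the median of the list. The 68 mitosis genes lie low in the combination library alone, the median of the 27 androgen-induced genes is lowest in the combination and next lowest with enzalutamide, most of the 34 ATF4 genes are highest in the combination, and the 13 mitochondrially encoded mRNAs are low in DMSO alone.

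At 20 uM PTUPB the same genes were low with or without enzalutamide. The mitosis median was -2.46 for PTUPB 20 uM minus DMSO, and adding enzalutamide to that dose gave a difference of 0.40, on the higher side, where adding it to 10 uM gave -1.15. The median of all genes for the addition at 20 uM was 0.04. HMMR, for example, had 3.37 FPKM with enzalutamide added to PTUPB 20 uM and 0.269 with PTUPB 20 uM alone. CDC20 had 16.7 FPKM with enzalutamide added to PTUPB 20 uM and 1.79 with PTUPB 20 uM alone. In both genes the combination at 10 uM PTUPB lay below PTUPB 10 uM alone, whereas the 20 uM library with enzalutamide lay above its PTUPB-only counterpart.

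DNA replication genes were lower to a lesser extent. All 35 were tested, of which 20 were lower and 0 higher than in DMSO, against 2.58% lower and 2.71% higher among all genes, with medians of -1.08 for the combination, -0.26 for enzalutamide and -0.22 for PTUPB 10 uM. The combination library was the lowest of the 4 for 34 of 35, against 32.5% of all genes. POLE, the leading-strand polymerase, was the exception at -0.04 from DMSO. CDC45, part of the replicative helicase, had 3.50 FPKM with the combination, 11.6 with enzalutamide, 11.9 with PTUPB 10 uM and 13.3 in DMSO and was 3.80-fold lower than in DMSO (95% counting interval 3.32 to 4.36). GINS1, another helicase subunit, was level in the other 3 libraries, with 5.65 FPKM in the combination library, against 17.1 for enzalutamide, 16.0 for PTUPB 10 uM and 17.0 for DMSO. TK1, thymidine kinase, had 23.6 FPKM with the combination, 71.1 with enzalutamide, 52.3 with PTUPB 10 uM and 75.0 in DMSO, and MCM7, a helicase ring subunit, had 15.2 FPKM in the combination library, against 32.2 for enzalutamide, 34.1 for PTUPB 10 uM and 46.3 for DMSO. Against the sum the list had a median of -0.61 and 3 genes at log2 1 or more below it, and these 3 were CDC45 at -1.34, GINS1 at -1.36 and TK1 at -1.04.

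Repair genes of the replication fork followed with a median of -0.73, where 4 of 20 tested (24 listed) were lower, against 2.58% of all genes, and 0 higher. Among the 4 were the exonuclease EXO1, FANCI of the Fanconi pathway and TIMELESS of the fork protection complex. EXO1 had 1.54 FPKM in the combination library, against 4.94 for enzalutamide, 4.64 for PTUPB 10 uM and 5.37 for DMSO. ATR and BARD1 lay on the other side, at 0.07 and 0.18. Of the G1 cyclins, CDKs and E2F genes, 3 of 15 tested (17 listed) were lower, with a median of -0.53, and the combination library was the lowest of the 4 for all 15, against 32.5% of all genes. E2F1 had 9.83 FPKM with the combination, 19.0 with enzalutamide, 18.3 with PTUPB 10 uM and 20.9 in DMSO, so the combination library stood apart from 3 libraries close to each other. MYC, a driver of cell growth, had 60.9 FPKM in the combination library, against 94.5 for enzalutamide, 71.7 for PTUPB 10 uM and 98.5 for DMSO. CDK inhibitors and p53 targets had a median of 0.15, which turned to -0.17 in TPM, with 1 of 20 higher and 1 lower. CDKN1A, the p21 inhibitor, had 50.4 FPKM with the combination, 48.4 with enzalutamide, 25.2 with PTUPB 10 uM and 32.8 in DMSO, so that enzalutamide alone gave a level like that of the combination.

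**Figure D3:**
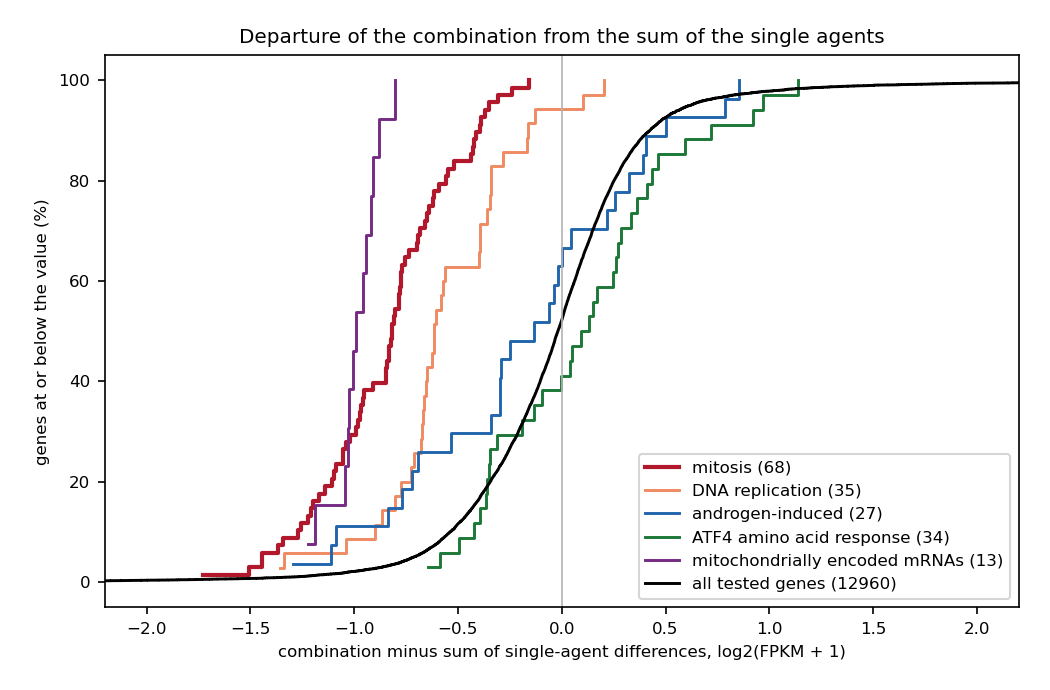
Cumulative share of genes (%) against the combination minus the sum of the single-agent differences, log2(FPKM + 1), with the number of tested genes in brackets. The mitosis curve lies wholly below 0, and the DNA replication curve lies below 0 for all but 2 genes. The androgen-induced curve has a median of -0.13, against -0.02 for all tested genes. In its lower part it lies apart, with 3 of 27 genes at log2 1 or more below the sum, against 2.15% of all genes.

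Androgen-induced genes were lower in the combination library as well, and for most of them the sum of the single agents came near the combination. Of 32 genes, 27 were tested, with 19 lower and 0 higher than in DMSO, against 2.58% lower among all genes. The median was -1.51 for the combination, -0.89 for enzalutamide and -0.31 for PTUPB 10 uM, and 11 and 2 genes were lower with those single agents, where 1.37% and 0.772% of all genes were. Against the sum the median was -0.13, which turned to 0.09 in TPM, to 0.04 scaled by total fragments and to 0.07 with the sum taken in FPKM. The medians of all genes were -0.02 as deposited, 0.34 in TPM, 0.14 by total fragments and -0.01 with the sum in FPKM. The list thus stayed below all genes in TPM and by total fragments, and lay above them with the sum in FPKM. As deposited, 3 of 27 lay log2 1 or more below the sum and 0 above it, against 2.15% below among all genes. In TPM these counts were 0 and 2, and with the sum taken in FPKM 1 and 6. Among all 12960 genes, 220 lay below and 875 above in TPM, and 222 and 328 with the sum in FPKM. The combination library was the lowest of the 4 for 21 of 27, against 32.5% of all genes.

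KLK3, the gene of prostate-specific antigen (chr19:50854915-50860764, plus strand in GENCODE 29), had 19.0 FPKM with the combination, 56.6 with enzalutamide, 89.7 with PTUPB 10 uM and 105 in DMSO. It was the lowest in the combination, 5.54-fold lower than in DMSO (95% counting interval 5.31 to 5.79), and lower than with enzalutamide by 2.97-fold (2.84 to 3.12). KLK2, its neighbour and close paralog, had 3.51 FPKM in the combination library, against 13.4 for enzalutamide, 32.3 for PTUPB 10 uM and 49.0 for DMSO, and reads of the pair may be shared. Relative to the sum of the single agents, KLK3 lay at -1.29 and KLK2 at -1.09. For KLK2 the direction depends on the scale, because the sum taken in FPKM leaves it with an expected level of 0 or less, set to 0, and a value of 2.17. At 20 uM PTUPB, KLK3 stood at 0.458 FPKM with enzalutamide added to PTUPB 20 uM and 0.648 with PTUPB 20 uM alone.

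Other androgen-induced genes are given in 2 kinds, set apart after their values were seen. In 1 kind the combination level was under both single agents by 2-fold or more. TMPRSS2, a membrane serine protease, had 30.5 FPKM with the combination, 72.5 with enzalutamide, 84.6 with PTUPB 10 uM and 137 in DMSO and was 4.50-fold lower than in DMSO (95% counting interval 4.37 to 4.64). ABCC4, an exporter of prostaglandins and cyclic nucleotides, had 13.1 FPKM with the combination, 26.6 with enzalutamide, 41.1 with PTUPB 10 uM and 47.5 in DMSO. CENPN, a kinetochore gene in the androgen-induced list, had 4.01 FPKM with the combination, 8.39 with enzalutamide, 10.1 with PTUPB 10 uM and 16.0 in DMSO. Relative to the sum, ABCC4 lay at -0.77 and TMPRSS2 at -0.53, but with the sum taken in FPKM TMPRSS2 lay above it, at 0.60.

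In the other kind enzalutamide alone came closer than 2-fold to the level of the combination. ST6GALNAC1, a sialyltransferase, had 1.16 FPKM in the combination library, against 0.955 for enzalutamide, 20.5 for PTUPB 10 uM and 22.2 for DMSO. SLC45A3, a prostate-restricted transporter, had 21.7 FPKM with the combination, 27.5 with enzalutamide, 125 with PTUPB 10 uM and 128 in DMSO, 5.92-fold lower in the combination than in DMSO. PTUPB 10 uM left both close to DMSO. FKBP5, a co-chaperone of steroid receptors, was below DMSO with each agent, at 4.33 FPKM in the combination library, against 6.21 for enzalutamide, 13.9 for PTUPB 10 uM and 35.4 for DMSO. It was 8.17-fold lower than in DMSO (95% counting interval 7.70 to 8.67), yet 0.85 above the sum of its single-agent differences. ACPP, prostatic acid phosphatase, also had enzalutamide within 2-fold of the combination but was higher than in DMSO. It had 22.1 FPKM in the combination library, against 30.3 for enzalutamide, 24.1 for PTUPB 10 uM and 14.7 for DMSO.

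**Figure D4:**
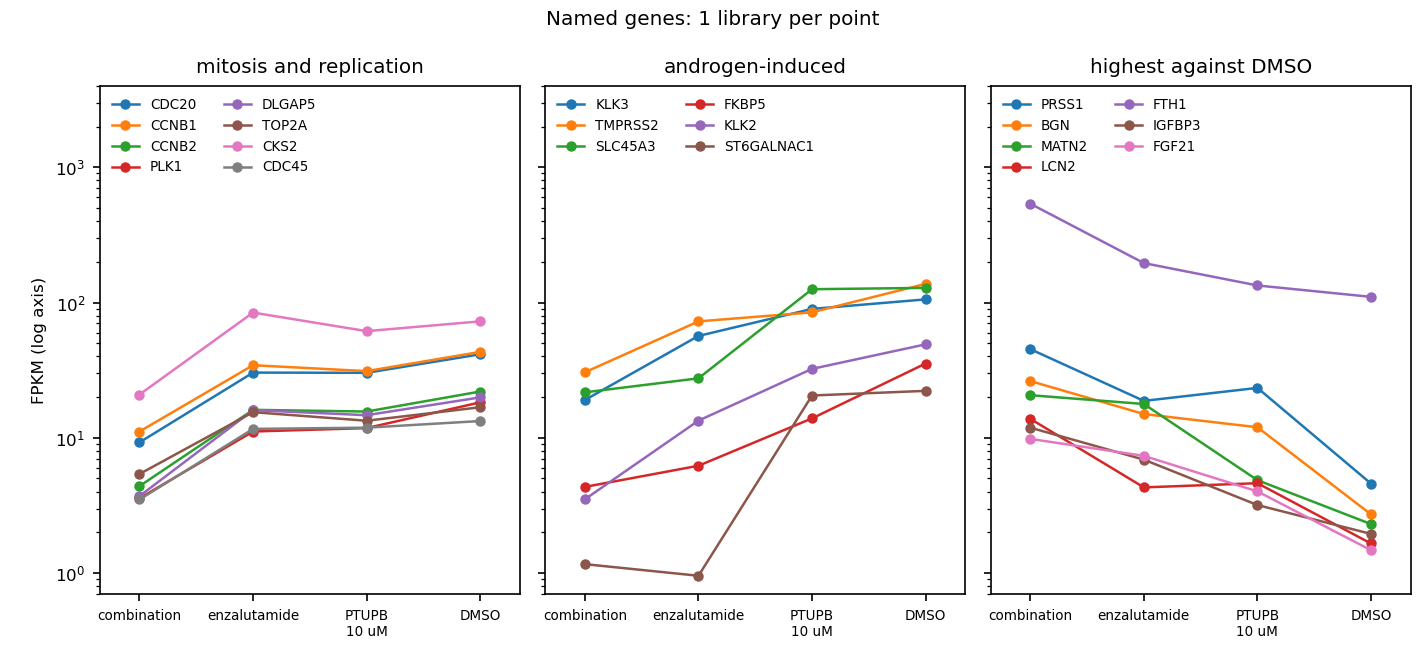
FPKM on a log axis in the combination, enzalutamide, PTUPB 10 uM and DMSO libraries for 8 mitosis and replication genes, 6 androgen-induced genes and 7 of the genes highest against DMSO. Each point is 1 library. The mitosis and replication genes lie lowest in the combination, while ST6GALNAC1 and SLC45A3 are about as low with enzalutamide alone.

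Androgen-repressed genes were higher, with 4 of 7 tested (9 listed) past the limit, against 2.71% of all genes, 0 lower and a median of 1.19, against 1.12 for enzalutamide and 0.66 for PTUPB 10 uM. UGT2B15, which conjugates androgens for excretion, had 30.2 FPKM with the combination, 22.4 with enzalutamide, 27.8 with PTUPB 10 uM and 9.79 in DMSO, with reads that may be shared within the UGT2B family. All 3 treated libraries were alike and DMSO was lower, so the value against the sum was -1.004. OPRK1, the kappa opioid receptor, had 2.68 FPKM in the combination library, against 3.08 for enzalutamide, 1.01 for PTUPB 10 uM and 0.496 for DMSO. FOLH1, prostate-specific membrane antigen, had 481 FPKM with the combination, 426 with enzalutamide, 389 with PTUPB 10 uM and 252 in DMSO. At 20 uM PTUPB the direction was the opposite, with a list median of -1.94 for PTUPB 20 uM minus DMSO. FOLH1 had 50.3 FPKM with PTUPB 20 uM alone and 40.8 with enzalutamide added to it.

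As deposited, no tested steroid receptor or cofactor gene passed the limit of log2 1. Of 11 tested steroid receptor and cofactor genes (16 listed), 0 were higher and 0 lower, with a median of -0.18. In TPM 1 was lower and the median was -0.54, where the median of all genes was -0.36. EPHX2, soluble epoxide hydrolase, had 7.97 FPKM with the combination, 8.35 with enzalutamide, 8.78 with PTUPB 10 uM and 8.97 in DMSO. PTGS2, cyclooxygenase-2, held 2 fragments in the combination library and was at 0 in the enzalutamide, PTUPB 10 uM and DMSO libraries, under the limit of 3 fragments, and no fold is given. NR3C1, the glucocorticoid receptor, was below 1 FPKM in each of these libraries. Of 14 tested arachidonic acid and PTUPB target genes (27 listed), ABCC4 was the 1 lower and 0 were higher, with a median of 0.28 (-0.01 in TPM). PLA2G2A, a secreted phospholipase, was high with enzalutamide alone, with 11.4 FPKM in the combination library, against 29.3 for enzalutamide, 7.17 for PTUPB 10 uM and 6.47 for DMSO. Its combination level lay at -1.42 relative to the sum.

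The 10 genes highest in the combination relative to DMSO, among genes with enough signal to rank, included several secreted proteins. PRSS1, cationic trypsinogen (chr7:142749468-142753076, plus strand in GENCODE 29), had 45.2 FPKM with the combination, 18.7 with enzalutamide, 23.4 with PTUPB 10 uM and 4.58 in DMSO, though reads may be shared among trypsinogen genes. It was the highest in the combination, 9.86-fold higher than in DMSO (95% counting interval 8.67 to 11.3), with both single agents between. BGN, the matrix proteoglycan biglycan, had 26.3 FPKM in the combination library, against 15.0 for enzalutamide, 12.0 for PTUPB 10 uM and 2.71 for DMSO and was 9.68-fold higher than in DMSO. It lay at -1.03 relative to the sum, and at 0.11 with the sum taken in FPKM. MATN2, matrilin-2, was nearly as high with enzalutamide alone, with 20.6 FPKM with the combination, 17.8 with enzalutamide, 4.86 with PTUPB 10 uM and 2.30 in DMSO.

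Some of these genes stood higher in the combination than with either agent. LCN2, the iron-carrier lipocalin, had 13.8 FPKM in the combination library, against 4.30 for enzalutamide, 4.62 for PTUPB 10 uM and 1.65 for DMSO, a level 8.35-fold higher than in DMSO (95% counting interval 6.59 to 10.7). FTH1, ferritin heavy chain, had 537 FPKM with the combination, 196 with enzalutamide, 134 with PTUPB 10 uM and 110.1 in DMSO. FTH1 has many processed copies, which makes its reads uncertain, and its combination level was 4.88-fold higher than in DMSO (95% counting interval 4.75 to 5.01) and 1.18 above the sum. IGFBP3, which binds insulin-like growth factors, had 11.9 FPKM in the combination library, against 6.89 for enzalutamide, 3.18 for PTUPB 10 uM and 1.95 for DMSO. ID1, an inhibitor of differentiation factors, had 23.4 FPKM with the combination, 7.44 with enzalutamide, 6.75 with PTUPB 10 uM and 5.10 in DMSO and lay 1.18 above the sum, but was chosen for description after its values were seen. OR7E39P, MT-TE and MIR616 completed the 10 with FGF21, at 96, 93 and 64 fragments in the combination library and 14, 22 and 11 in DMSO. MIR616 lies inside DDIT3 on the same strand, so reads of the pair cannot be separated here.

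Most amino acid response genes were higher in the combination library than with enzalutamide, with PTUPB 10 uM and in DMSO. Of 34 ATF4 genes, all tested, 12 were higher and 0 lower than in DMSO, against 2.71% higher among all genes, and the combination was the highest of the 4 libraries for 31, against 25.9%. Their median was 0.71 for the combination, 0.47 for enzalutamide and 0.24 for PTUPB 10 uM, and 0.11 against the sum. In TPM the combination median was 0.40 with 5 genes higher. At 20 uM PTUPB the list was also high, with a median of 0.82 for PTUPB 20 uM minus DMSO. Adding enzalutamide to that dose gave a median difference of 0.26. FGF21, a stress hormone, had 9.81 FPKM with the combination, 7.35 with enzalutamide, 4.01 with PTUPB 10 uM and 1.48 in DMSO. CHAC1, which degrades glutathione, had 16.0 FPKM in the combination library, against 7.98 for enzalutamide, 7.13 for PTUPB 10 uM and 4.10 for DMSO, and DDIT3, the factor CHOP, had 43.0 FPKM with the combination, 23.5 with enzalutamide, 26.1 with PTUPB 10 uM and 16.0 in DMSO. ASNS, asparagine synthetase, had 9.30 FPKM in the combination library, against 6.25 for enzalutamide, 4.31 for PTUPB 10 uM and 3.81 for DMSO. In all of these the order was the combination highest and DMSO lowest.

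SESN2, a sestrin that restrains mTORC1, had the same highest and lowest library, with both single agents near DMSO. It had 19.7 FPKM with the combination, 8.75 with enzalutamide, 8.74 with PTUPB 10 uM and 7.99 in DMSO, and was 2.46-fold higher in the combination, 0.97 above the sum. GDF15, a stress cytokine, was below DMSO with each agent and above it in the combination, with 38.1 FPKM in the combination library, against 19.8 for enzalutamide, 22.8 for PTUPB 10 uM and 26.8 for DMSO, and it lay 1.14 above the sum. It was the 1 gene of the list at log2 1 or more above the sum as deposited, where 4 were in TPM and 3 scaled by total fragments or with a pseudocount of 0.1. Among all 12960 genes, 280 were above the sum as deposited and 875 in TPM. Scaling by total fragments gave 355 and a pseudocount of 0.1 gave 571. Chaperones of the endoplasmic reticulum had 0 of 23 tested (24 listed) higher and 0 lower, with medians of 0.32 for the combination, 0.33 for enzalutamide and 0.47 for PTUPB 10 uM, and a median of -0.03 for the combination in TPM. HSPA5, the main chaperone there, had 574 FPKM with the combination, 403 with enzalutamide, 439.6 with PTUPB 10 uM and 294 in DMSO.

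Mitochondrially encoded mRNAs were as high in the combination as with either agent. Of 13 genes, 12 were higher, against 2.71% of all genes, and 0 lower than in DMSO, with medians of 1.24 for the combination, 1.16 for enzalutamide and 1.07 for PTUPB 10 uM, and 4 were higher in TPM (median 0.89). The share of fragments from the mitochondrial genome was 13.8% in the combination library, 12.2% with enzalutamide, 12.4% with PTUPB 10 uM and 6.47% in DMSO, and its part in this result was not tested. With PTUPB 20 uM the share was near that of DMSO, at 5.83% alone and 7.12% with enzalutamide added. The list median for PTUPB 20 uM minus DMSO was -0.19. The combination differed from enzalutamide by a median of 0.05 and from PTUPB 10 uM by 0.17, so the list lay at -0.99 relative to the sum. MT-ND1, a subunit of complex I, had 4520.3 FPKM in the combination library, against 3659 for enzalutamide, 3735 for PTUPB 10 uM and 1641 for DMSO. Nuclear genes of oxidative phosphorylation had 0 of 27 tested (28 listed) higher and 0 lower, with a median of -0.14.

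Among glycolysis and hypoxia genes, 8 of 28 tested (31 listed) were lower, against 2.58% of all genes, and 0 higher, with medians of -0.78 for the combination, -0.33 for enzalutamide and -0.56 for PTUPB 10 uM. PGK1, phosphoglycerate kinase, had 52.1 FPKM with the combination, 94.2 with enzalutamide, 76.8 with PTUPB 10 uM and 195 in DMSO. LDHA, lactate dehydrogenase, had 31.9 FPKM in the combination library, against 59.0 for enzalutamide, 58.7 for PTUPB 10 uM and 114 for DMSO and was 3.57-fold lower than in DMSO (95% counting interval 3.47 to 3.68). For both, DMSO was the highest library, and reads may be shared with pseudogenes. BNIP3, a hypoxia-induced mitophagy receptor, had 23.8 FPKM with the combination, 38.8 with enzalutamide, 34.0 with PTUPB 10 uM and 69.0 in DMSO. The list lay 0.15 above the sum of the single agents, and VEGFA, the vascular growth factor, was higher than in DMSO at 0.42. Among fatty acid synthesis genes, 3 of 18 tested (19 listed) were lower, with a median of -0.45, and FASN, the synthase itself, had 104 FPKM in the combination library, against 212 for enzalutamide, 126 for PTUPB 10 uM and 350.4 for DMSO. The lowest FASN level was that of the combination, with PTUPB 10 uM next.

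The 10 genes lowest against DMSO also held 3 outside the lists. NPPC, C-type natriuretic peptide, had 1.17 FPKM with the combination, 2.41 with enzalutamide, 4.36 with PTUPB 10 uM and 12.4 in DMSO. AC099850.3 had 3.54 FPKM in the combination library, against 13.6 for enzalutamide, 16.0 for PTUPB 10 uM and 25.4 for DMSO and lies opposite PRR11, from which its reads cannot be separated without strand. Genes that departed most from the sum were mostly low in fragments or not protein-coding. The 8 highest included SNORD83A at 2.77 and FP671120.4 at 3.30, and the 8 lowest SNRPGP10 at -3.04 and RNU7-57P at -3.02. FP671120.4, a long noncoding RNA and the lowest of all against DMSO, had 1.19 FPKM with the combination, 1.496 with enzalutamide, 1.94 with PTUPB 10 uM and 32.1 in DMSO, so that DMSO stood apart from the rest. ATP6V0C, a proton pump subunit, was the 1 protein-coding gene among the 8 highest, with 9.90 FPKM in the combination library, against 2.39 for enzalutamide, 4.31 for PTUPB 10 uM and 5.58 for DMSO. Protein-coding genes were also ranked alone, a choice made after values were seen. NMU, the peptide neuromedin U, had 3.18 FPKM with the combination, 14.3 with enzalutamide, 9.75 with PTUPB 10 uM and 11.3 in DMSO and lay at -1.68 relative to the sum. PBK, a mitotic kinase outside the lists, had 4.74 FPKM in the combination library, against 20.8 for enzalutamide, 15.9 for PTUPB 10 uM and 22.05 for DMSO. SLPI, a protease inhibitor, was high with enzalutamide alone, with 28.95 FPKM with the combination, 103 with enzalutamide, 47.1 with PTUPB 10 uM and 56.5 in DMSO. VIM, vimentin, was below DMSO in the 3 treated libraries, with 5.11 FPKM in the combination library, against 3.96 for enzalutamide, 4.42 for PTUPB 10 uM and 11.9 for DMSO, and lay 1.55 above the sum.

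In the remaining lists few genes passed the limit. The counts higher and lower were 0 and 0 of 19 for cholesterol synthesis (median -0.04), 0 and 0 of 23 for MYC and ribosome biogenesis (-0.37) and 2 and 0 of 26 for lysosome and autophagy (0.41). Heat shock genes had 0 and 1 of 13 (-0.47), apoptosis regulators 0 and 0 of 19 (-0.09) and luminal identity genes 0 and 4 of 17 (-0.30). NF-kB targets had 1 and 0 of 11 (-0.18), immediate early genes 0 and 1 of 11 (-0.05) and neuroendocrine genes 0 and 1 of 4 (-0.55). Medians that changed sign in TPM were those of NRF2, AHR and xenobiotic genes at 0.08 (-0.27 in TPM; 2 and 0 of 16), interferon genes at 0.33 (-0.01; 0 and 0 of 14) and replication-dependent histones at 0.27 (-0.08; 0 and 1 of 11). Housekeeping genes, 18 in all, had a median of -0.31 for the combination, with 0 higher and 1 lower.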

How the data were processed

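The 6 RNA-seq libraries, 1 per group, were grouped by the treatment given in the labels. Per the submitters' processing notes reads were aligned with HISAT and quantified with Cufflinks. Versions, genome build and strand setting are not given in the sources used here. The authors deposited 1 FPKM value per gene and library. All 58735 gene identifiers matched GENCODE 29, and FPKM times exon length fell on whole multiples of 1 step per library (within 0.05 fragments, all low values), which gave fragments per gene.

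Values were analysed as log2(FPKM + 1) where the mean was 1 FPKM or more (12960 genes), in Python 3.11.15 with numpy 2.4.6, pandas 2.3.3, scipy 1.17.1 and matplotlib 3.10.9, and the calculation was checked on simulated data. Counting intervals are exact (Clopper-Pearson, 95%). No test was made, since no library has a replicate.

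Genes ranked had 5 FPKM and 50 fragments in at least 1 of the 4 libraries (7731 genes). Named were the 10 highest and 10 lowest against DMSO, the 8 highest and 8 lowest against the sum, up to 4 per list and 25 fixed genes. Other members are named from the lists after their values were seen. Some genes that the rule names are not reported here. The comparison and the 29 lists, written from general knowledge, were chosen with earlier results of these data known. Alternatives were the pseudocount, the filter, the limit for a call, TPM, median-of-ratios and total-fragment scaling, and a sum taken in FPKM.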

Additional observations from a re-analysis of the deposited data

Results flagged for a closer look

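For 3 genes the enzalutamide difference had opposite signs without and with PTUPB 10 uM, each past log2 1, and that change of sign was not tested. AC104564.3, inside TP53I13 on the same strand, held 67 fragments in the combination library, 27 with PTUPB 10 uM, 0 with enzalutamide and 27 in DMSO, and lay 2.68 above the sum of the single-agent differences. SNRPGP15, a processed pseudogene, held 131, 63, 30 and 72 fragments in the same order of libraries and lay 2.17 above the sum. SNRPGP10, another processed copy of the same parent gene, held 22, 119, 111 and 54 and lay at -3.04. Reads of the pseudogenes may be shared with their parent gene and with each other.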

How the results depend on the processing

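The counts of genes are given in the order combination higher and lower than DMSO, above and below the sum, and above and below the other 3 libraries, where the reported counts were 351, 335, 280, 278, 55 and 97. A pseudocount of 0.1 gave 682, 549, 571, 515, 129 and 200, and a pseudocount of 5 gave 83, 106, 55, 64, 8 and 21. A mean of 5 FPKM or more left 146, 165, 39, 99, 14 and 62, and calling at log2 0.58 gave 1166, 1014, 726, 1091, 222 and 327. With no filter the first 5 counts were 577, 565, 874, 642 and 184. TPM gave 990 lower than DMSO, 875 above the sum and 86 and 157 above and below the other libraries. Alternatives chosen after seeing the data were 50 or more fragments in 1 of the 4 libraries, with 206 higher than DMSO, 88 and 152 above and below the sum and 16 above the other libraries, and protein-coding genes alone, with 145, 31, 96 and 8 for the same counts. All other counts stayed within 1.5 times, among them those under median-of-ratios and total-fragment scaling. With the sum taken in FPKM, BGN turned to 0.11 and KLK2 to 2.17 relative to the sum, against -1.03 and -1.09 as reported. A pseudocount of 5 left 13 of 28 and 17 of 40 genes of the mitosis lists and 6 of 35 DNA replication genes lower than DMSO, and TPM put 28, 40 and 33 there, with 16 of 28 glycolysis genes. A pseudocount of 5 left 4 of 28 glycolysis genes, 0 of 20 repair genes and 0 of 15 G1 genes lower and 6 of 34 ATF4 genes and 1 of 7 androgen-repressed genes higher, while TPM put 13 repair, 7 G1 and 7 of 18 fatty acid synthesis genes lower. Among all 12960 genes, 106 were lower and 83 higher with a pseudocount of 5, and 990 were lower and 334 higher in TPM. The count of replication genes below the sum, 3 as reported, was 6 with a pseudocount of 0.1 and 0 with one of 5. For single genes the cause was not tested. No paired analysis was possible because each group has 1 library and the labels carry no replicate numbers, and for the same reason no library could be left out. At fewer than 50 fragments, counting error alone can move a gene past the limit, and such genes are most of those above the sum.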
